A study of Rattus norvegicus with 14 samples.

Results

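The distal ends of the 20 rat autosomes were examined in a Methyl-Seq data set of dorsal hippocampus. For each autosome the largest region end was taken as its distal end, and every region that started within 2 Mb below that end was a member. This position alone chose 3534 of 310070 regions, with between 60 members on chromosome 15 and 433 on chromosome 5 (median 138.5). They were compared with the 291103 regions in the rest of the autosomes, called the interior here. Coordinates are those of the rat build RN4, in which the position of genes and telomeric repeats was not used here.

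In Methyl-Seq, fragmented DNA is captured on beads with a protein that binds methylated CpG, and the sequenced tags of a region rise with the amount of methylated CpG in it. Cytosine methylation at CpG is a lasting mark that represses many promoters and repeats. Chromosome ends carry telomeric repeats, and the subtelomeric DNA next to them is often rich in repeats and duplicated segments, is commonly CpG-rich, and is heavily methylated in most somatic tissues. Reads from such copies are hard to place on a reference.

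Male Wistar rats (300 to 350 g) were kept on a standard diet and given saline (CTRL, n = 5), given pilocarpine at 340 mg/kg on a standard diet (PILO, n = 4), or given pilocarpine and a ketogenic diet (PILO+KD, n = 5). Pilocarpine is a muscarinic agonist that induces status epilepticus, after which spontaneous seizures develop. All animals, CTRL included, received methyl scopolamine, and the pilocarpine animals also received diazepam. Observation lasted 84 days, and each library came from 1 animal. The ketogenic diet was not given without pilocarpine in these groups, so that a diet effect on its own cannot be told apart. The DNA came from whole tissue, in which a change in cell types and a change of methylation within a cell type cannot be told apart.

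Total tags per animal ranged from 6972700 to 12391666, of which 1.24% to 1.31% fell in members (78454 to 137414 tags). The 14 libraries came from 4 flow cells, the largest of which held 8 (3 CTRL, 3 PILO and 2 PILO+KD). Another held 1 library of each group. A further flow cell held CTRL replicate 1 and PILO+KD replicate 1, and the last held only PILO+KD replicate 4. No PILO library came from the flow cells of PILO+KD replicates 1 and 4, so that group and flow cell cannot be fully told apart. No pair of libraries of the same group was alike within sampling noise over the members, the chi-square per degree of freedom being 1.53 to 4.22.

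Regions of the deposited list were sparser at the chromosome ends than in the interior. Per the paper, the list holds regions that differed in methylation between pairs of samples. Its density is therefore not the density of methylated DNA. The distal 2 Mb held 88.4 regions per Mb against 115.6 in the interior, a ratio of 0.764, and 5.72% against 7.46% of the sequence was covered by regions. The regions themselves were of like size, with a median length of 556 bp against 564 bp. Unsequenced stretches of the build were counted as span. Empty blocks of 100 kb made up 2.75% of the distal blocks (11 of 400) and 2.28% of the interior blocks (573 of 25172). The opposite end of each autosome, its first 2 Mb with regions, held 77.5 regions per Mb, more than the distal end on 10 of 20 autosomes.

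Of the steps within 20 Mb of the distal end, only those in the outermost 2 Mb lay below the interior mean. Within 0.5 Mb of the end there were 75.2 regions per Mb, and from 0.5 to 1 Mb there were 70.4. The density was 103.9 per Mb from 1 to 2 Mb, 176.8 from 2 to 5 Mb and 201.0 from 5 to 10 Mb. From 10 to 20 Mb it was 166.3. The interior mean of 115.6 per Mb includes the dense steps from 2 to 20 Mb. Only 4 of 20 autosomes exceeded their own interior in the outermost 0.5 Mb, whereas 18 of 20 did so from 5 to 10 Mb. With a window of 5 Mb in place of 2 Mb the ratio of density to the interior was 1.24, above 1. The plot of density against distance shows this rise together with the tag density.

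**Figure D1:**
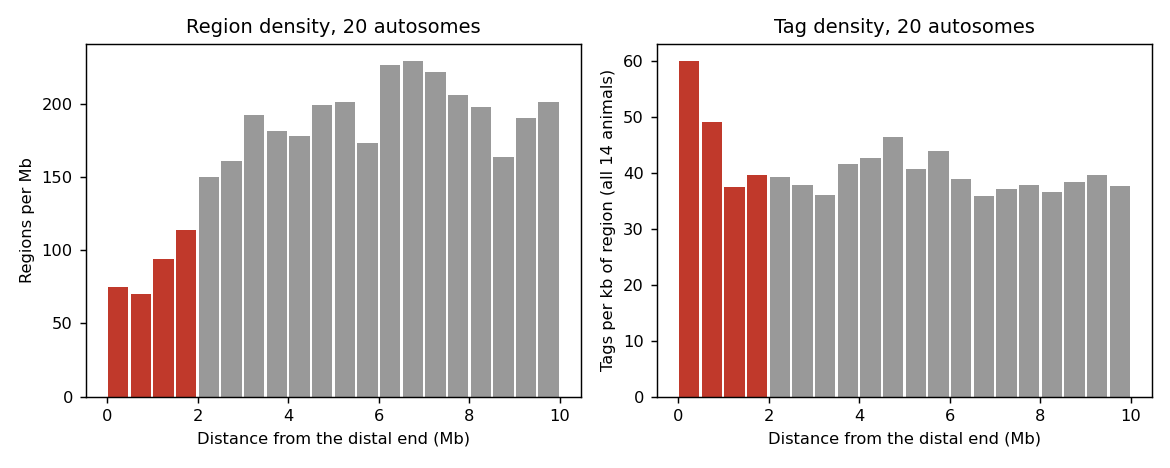
Regions per Mb (left) and tags per kb of region over all 14 animals (right) in steps of 0.5 Mb from the distal end, summed over the 20 autosomes; red bars lie in the distal 2 Mb. Region density is lowest in the first 1 Mb (75.2 and 70.4 per Mb), where tag density is highest (60.1 and 49.1 tags per kb).

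The autosomes differed widely in how they ended. On chromosome 16 the distal 2 Mb held 0.264 times the regions per Mb of its interior, the lowest ratio, and chromosome 15 followed with 0.289. On chromosome 5 the distal density was 216.5 against 108.2 per Mb, a ratio of 2.00. Chromosomes 3, 4 and 10 were the other autosomes above their interior, with ratios of 1.32, 1.22 and 1.24. The median ratio over the 20 autosomes was 0.573. The longest stretch without a region, 230 kb, lay on chromosome 15.

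**Figure D2:**
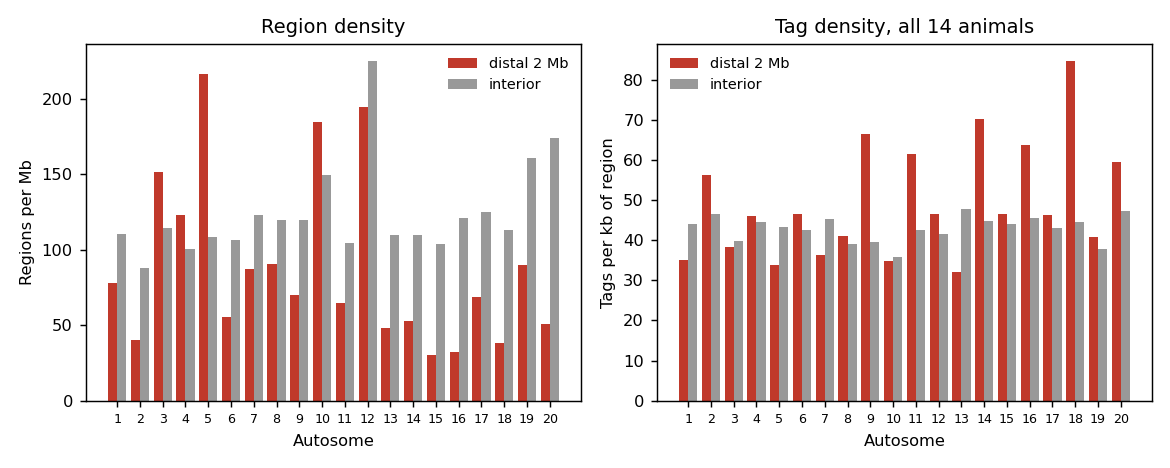
Regions per Mb (left) and tags per kb of region over all 14 animals (right) in the distal 2 Mb (red) and the interior (grey) of each autosome. Region density at the end is above the interior on chromosomes 3, 4, 5 and 10 (ratios 1.32, 1.22, 2.00 and 1.24), and tag density is above it on 14 of 20 autosomes.

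The few regions at the ends held more tags for their length. Members held 45.7 tags per kb of region as the mean of the 14 animals, against 43.0 in the interior and 70.7 in the first 2 Mb of the autosomes. In CTRL, replicates 1 to 5 had a distal to interior ratio of tags per kb of 1.04, 1.06, 1.07, 1.05 and 1.06. In PILO, replicates 2 to 5 had 1.09, 1.03, 1.07 and 1.07. In PILO+KD, replicates 1 to 4 and animal 211 had 1.09, 1.06, 1.06, 1.09 and 1.06. Replicates 1 and 4, the highest of these, came from flow cells without a PILO library. The ratio was thus above 1 in 14 of 14 animals, and the groups overlapped.

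The excess sat at the very end. In the outermost 0.5 Mb tags per kb were 1.28 to 1.5 times the interior, in 14 of 14 animals, and 17 of 20 autosomes exceeded their own interior there. From 1 to 2 Mb the level was 38.7 tags per kb, and only 7 of 20 autosomes did so. With a window of 5 Mb the ratio was 0.975, above 1 in 3 of 14 animals. Chromosome 18 had the highest ratio for its distal 2 Mb, 84.6 against 44.6 tags per kb (1.90), and chromosome 13 the lowest, 32.0 against 47.7 (0.670).

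Leaving out the 3 densest members lowered this excess and did not remove it. The median member had 16.9 tags per kb against 16.2 in the interior, and in the outermost 0.5 Mb the median was 22.3. More than 100 tags per kb were found in 5.69% of members (201 of 3534), 5.22% of interior regions and 9.44% of regions in the outermost 0.5 Mb. The densest decile of the members held 50.7% of their tags, and that of the interior regions 52.1%. Without the 3 densest members the ratio was 1.04 (1.02 to 1.07), against 1.06 with them, and above 1 in 14 of 14 animals. No interior regions were left out to match, and what the excess rests on was not tested. Across the 20 autosomes, distal region density and distal tags per kb went in opposite directions (Pearson r = -0.52, Spearman rho = -0.58; interior r = -0.29). These points share the same libraries and region list.

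The 3 tested members with the most tags per kb were chr12:45820368-45822376 (2008 bp, 961.2 kb from the end), chr12:46774606-46776051 (1445 bp, 7.01 kb from the end) and chr14:110259348-110260973 (1625 bp). In CPM (tags scaled to library size), the first had 82.3 to 123 in CTRL, 82.9 to 140 in PILO and 103.7 to 206 in PILO+KD. The second had 57.7 to 88.1, 54.9 to 85.7 and 58.6 to 99.8 CPM in the same order, and the groups overlapped for both. The longest member, chr9:113113100-113118177 (5077 bp), had 54.5 to 81.9 CPM in CTRL, 51.6 to 69.6 in PILO and 60.0 to 75.7 in PILO+KD.

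To ask whether epilepsy or diet shifted methylation at chromosome ends as a whole, the log2 ratio of distal to interior tags per kb was compared over animals. The ratio was 1.06 ± 0.0139 (SD, n = 5) in CTRL, 1.07 ± 0.0236 (n = 4) in PILO and 1.07 ± 0.0185 (n = 5) in PILO+KD. PILO differed from CTRL by 0.01 on the log2 scale (exact permutation test, two-sided, p = 0.452, adjusted over the 3 comparisons 0.679). PILO+KD differed from CTRL by 0.02 (exact permutation p = 0.190, adjusted 0.571) and from PILO by 0.01 (exact permutation p = 0.698, adjusted 0.698). Single animals moved these small values. The first went from 0.0024 without PILO replicate 2 to 0.028 without PILO replicate 3 (exact permutation p = 0.0893, adjusted 0.268). On the median over regions of log2 CPM the differences were larger, 0.03, 0.05 and 0.02 (exact permutation p = 0.246, 0.0873 and 0.492, adjusted 0.369, 0.262 and 0.492). The smallest p these designs allow is 0.00794. In the 8 libraries of the largest flow cell the 3 differences were 0.0065, -0.0048 and -0.011 on the log2 scale (exact permutation p = 0.9, 0.7 and 0.7, each 0.9 when adjusted, where these designs allow 0.1 at best), so that the last 2 had the opposite sign. The 95% intervals, by inverting the test, reached from 0.977-fold to 1.04-fold for PILO against CTRL, from 0.991-fold to 1.04-fold for PILO+KD against CTRL and from 0.973-fold to 1.04-fold for PILO+KD against PILO.

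**Figure D3:**
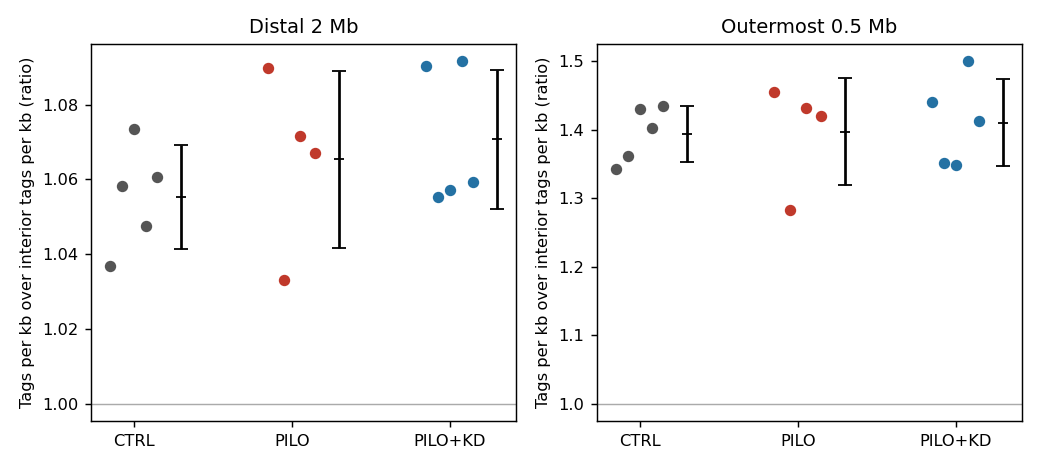
Ratio of tags per kb at the chromosome end to tags per kb in the interior for each animal (points), with the group mean and SD beside it, for the distal 2 Mb (left) and the outermost 0.5 Mb (right); the axes do not start at 0 and the grey line marks a ratio of 1. All 14 animals lie above 1 in both panels, and the 3 groups overlap.

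The ratio correlated with measures of library composition. Over the 14 animals it correlated with the share of interior tags in the densest decile of interior regions (r = 0.87, permutation p = 0.00014, adjusted 0.00028; rho = 0.84, permutation p = 0.00039; r = 0.78 without the 2 animals farthest from the median). It also correlated with total tags (r = -0.64, permutation p = 0.0137, adjusted 0.0137; rho = -0.58, permutation p = 0.0318; r = -0.53 without 2 animals). In the 8 libraries of the largest flow cell r was 0.85 (exact permutation p = 0.0102, adjusted 0.0204) and rho 0.79 (exact permutation p = 0.0279, adjusted 0.0559) for the former, and r was -0.79 (exact permutation p = 0.0212, adjusted 0.0212) and rho -0.64 (exact permutation p = 0.0962, adjusted 0.0962) for the latter. Interior tags enter the ratio, the share and the total tags, so these measures are not independent of the ratio. The permutation p values do not account for this. The part of these measures in the ratio was not tested.

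Single members were compared with edgeR's quasi-likelihood test across all regions, after those with fewer than 129 tags summed over the animals were removed. Of the 3534 members 1756 (49.7%) passed this filter, against 49.2% of interior regions. A region was called at an unadjusted p below 0.01. In PILO against CTRL 24 members were called, 15 higher and 9 lower, which is 1.37% of those tested, where 1.19% of all regions tested were called (0.713% higher and 0.482% lower). Without PILO replicate 3 the balance turned, with 11 members called higher and 15 lower, as it did over all regions (823 higher and 1400 lower). In PILO+KD against CTRL 14 members were called, 11 higher and 3 lower (0.797%, against 0.92% of all regions, 0.5% higher and 0.42% lower). In PILO+KD against PILO 6 were called, 3 in each direction (1 higher and 3 lower when scaled by total tags only; 0.342%, against 0.351%, with 0.151% higher and 0.201% lower). The shares of members called thus lay near the background in each comparison. Which of the shares was larger depended on the setting. Without the filter 1.05%, 0.877% and 0.311% of members were called in the 3 comparisons (background 1.17%, 0.946% and 0.536%), and with 10 or more tags per animal 0.997%, 0.363% and 0.363% (background 1.02%, 0.675% and 0.253%). In the largest flow cell the shares were 0.968%, 0.569% and 0.399% (background 1.41%, 0.611% and 0.537%), and with flow cell as a block 1.25%, 1.14% and 0.342% (background 1.25%, 0.949% and 0.396%).

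Adjusted over all regions tested, no member had an adjusted p below 0.05 with edgeR's quasi-likelihood test in any comparison, where 6, 2 and 0 regions of the whole table did (0.00387%, 0.00129% and 0.0%). At an unadjusted p below 0.05 there were 90, 72 and 41 members in PILO against CTRL, PILO+KD against CTRL and PILO+KD against PILO. These were 5.13%, 4.10% and 2.33% of the tested members, against 5.13%, 4.22% and 2.3% of all regions. DESeq2's Wald test likewise gave 0 members in the 3 comparisons (0.00709%, 0.00129% and 0.0% of all regions), and edgeR's exact test gave 1 in PILO against CTRL (adjusted p = 0.0189), the first region named below, where it called 41 of all regions (0.0264%), and 0 in the other comparisons (0.00903% and 0.00451% of all regions). The groups did not overlap for 35 members in PILO against CTRL (1.99%, background 2.01%), for 12 in PILO+KD against CTRL (0.683%, background 0.727%) and for 16 in PILO+KD against PILO (0.911%, background 0.746%). The median log2 fold change of the tested members was 0.02, 0.02 and 0.01, and that of all tested regions was 0.00, 0.01 and 0.00. For PILO+KD against CTRL and against PILO the members' median was below 0 with flow cell as a block (-0.0046 and -0.014), in the largest flow cell (-0.021 in both) and with scaling by total tags (-0.012 and -0.014).

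Chromosome 10 held 7 of the 24 members called in PILO against CTRL. Among the 171 tested there this was 4.09%, against 1.37% of all tested members and 1.19% of all regions. This chromosome held the most calls and was picked after they were seen, so its share was not tested. Its 5 higher calls lay in a pair of short stretches. The more distal stretch, chr10:109604512-109607130, held a pair of regions 434 bp apart, and both were called. Summed over them, CTRL replicates 1 to 5 had 2.19, 4.81, 4.89, 3.92 and 2.62 CPM. PILO replicates 2 to 5 had 11.1, 8.38, 8.17 and 5.29 CPM. PILO+KD replicates 1 to 4 and animal 211 had 7.34, 4.74, 8.24, 4.53 and 5.41 CPM. Every PILO animal lay above every CTRL animal, and PILO+KD overlapped with both. Both stretches were bounded by members called higher in PILO, so that this order of PILO and CTRL largely follows from the choice.

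The first of these regions, chr10:109604512-109605572 (1060 bp, 1105 kb from the end), had 0.993, 3.02, 2.58, 2.28 and 1.20 CPM in CTRL and 6.51, 5.10, 4.47 and 3.78 CPM in PILO, without overlap. Its log2 fold change was 1.31 (SE 0.27; edgeR adjusted p = 0.278), the smallest p among the members. In PILO+KD it had 2.54 to 4.07 CPM, with a log2 fold change of 0.68 (SE 0.27; edgeR adjusted p = 1.00) against CTRL and -0.64 (SE 0.26; edgeR adjusted p = 1.00) against PILO. Its neighbour, chr10:109606006-109607130, had 1.19 to 2.32 CPM in CTRL and 1.51 to 4.59 CPM in PILO, which overlapped (log2 fold change 0.96, SE 0.32; edgeR adjusted p = 0.795). It was named after its values were seen, as were the neighbours of the next stretch.

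The other stretch, chr10:109417773-109425041, lay 179471 bp further inward and spanned 7268 bp. It held 5 regions, of which 4 were tested, 4 had a log2 fold change above 0 in PILO against CTRL and 3 were called. Summed over the tested regions, CTRL replicates 1 to 5 had 14.7, 15.8, 15.8, 12.7 and 14.5 CPM. PILO replicates 2 to 5 had 27.8, 21.9, 22.2 and 20.9 CPM, again all above CTRL in a stretch bounded by such calls. PILO+KD replicates 1 to 4 and animal 211 had 24.3, 19.4, 22.2, 12.5 and 20.4 CPM, of which replicate 4 lay below all CTRL animals and the others above. These regions were counted in the same libraries and are not independent of each other.

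Within that stretch, chr10:109424150-109425041 (891 bp) was called in both comparisons with CTRL. It had 2.09, 2.35, 2.32, 1.14 and 0.872 CPM in CTRL, 6.36, 3.53, 3.55 and 2.65 in PILO, and 6.19, 3.37, 4.86, 1.66 and 4.13 in PILO+KD. PILO did not overlap with CTRL, and PILO+KD did through replicate 4. The log2 fold change was 1.17 (SE 0.33; edgeR adjusted p = 0.635) in PILO and 1.18 (SE 0.31; edgeR adjusted p = 0.805) in PILO+KD. Without PILO replicate 2 the PILO value was 0.89 and no longer called (edgeR unadjusted p = 0.0127). The 2 comparisons share their CTRL animals. The called neighbours chr10:109417773-109418567 and chr10:109421555-109422936 had log2 fold changes of 0.71 (SE 0.25) and 0.51 (SE 0.17) in PILO against CTRL. In the 9 fits with 1 animal removed these 2 were called in 4 and 5, and the neighbour in the more distal stretch in 4, with the highest p without PILO replicate 2 (0.63, 0.45 and 0.78 on the log2 scale). The first region named above was called in 9 of 9.

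Elsewhere, 2 higher members were among the 4 with the smallest p in PILO against CTRL. Near the end of chromosome 12, chr12:46463846-46464630 (784 bp, 317.8 kb from the end) had 1.79, 1.68, 1.67, 1.14 and 0.872 CPM in CTRL and 5.77, 2.63, 2.47 and 3.03 in PILO, without overlap (log2 fold change 1.25, SE 0.32; edgeR adjusted p = 0.561). In PILO+KD it had 1.77 to 4.18 CPM, just within the CTRL range at its lowest (0.91, SE 0.31; edgeR adjusted p = 1.00). On chromosome 8, chr8:127172914-127174985 (2071 bp) had 6.43 to 10.9 CPM in CTRL, 10.9 to 15.1 in PILO and 9.18 to 16.0 in PILO+KD. Its PILO range met that of CTRL through replicate 3 (log2 fold change 0.65, SE 0.18; edgeR adjusted p = 0.634).

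The 4 lower members with the smallest p in PILO against CTRL had no overlap between the groups. Such calls often lack overlap, as did 16 of the 24 called members and 989 of all 1853 called regions. On chromosome 10, chr10:108817662-108818460 (798 bp) had 4.67, 2.57, 2.70, 3.8 and 4.36 CPM in CTRL and 1.33, 2.30, 1.70 and 1.64 in PILO (log2 fold change -1.02, SE 0.28; edgeR adjusted p = 0.629). In PILO+KD it had 1.69 to 2.99 CPM, which overlapped with both other groups. Also on chromosome 10, chr10:108858632-108859145 had 1.34 to 3.08 CPM in CTRL and 0.592 to 1.07 in PILO (-1.15, SE 0.38). It was no longer called without CTRL replicate 1 (-0.92), PILO replicate 2 (-1.02) or PILO replicate 4 (-1.10).

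At the tip of chromosome 1, chr1:267621663-267622321 (658 bp, 287.8 kb from the end) was lower in both groups than in CTRL. It had 4.67, 4.70, 5.79, 5.06 and 5.45 CPM in CTRL, 2.66, 2.79, 3.85 and 2.52 in PILO, and 4.46, 3.69, 4.18, 2.43 and 2.65 in PILO+KD, so that neither group overlapped with CTRL. The log2 fold change was -0.80 (SE 0.23; edgeR adjusted p = 0.633) in PILO and -0.57 (SE 0.20; edgeR adjusted p = 1.00) in PILO+KD. The second call was kept in only 2 of 10 fits with 1 animal removed, with values of -0.64 to -0.46. On chromosome 17, chr17:96651201-96651854 had 5.12 to 5.19 CPM in CTRL and 1.63, 4.11, 4.01 and 2.27 in PILO (-0.75, SE 0.24). Without PILO replicate 2 (-0.55) or PILO replicate 5 (-0.62) it was no longer called.

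**Figure D4:**
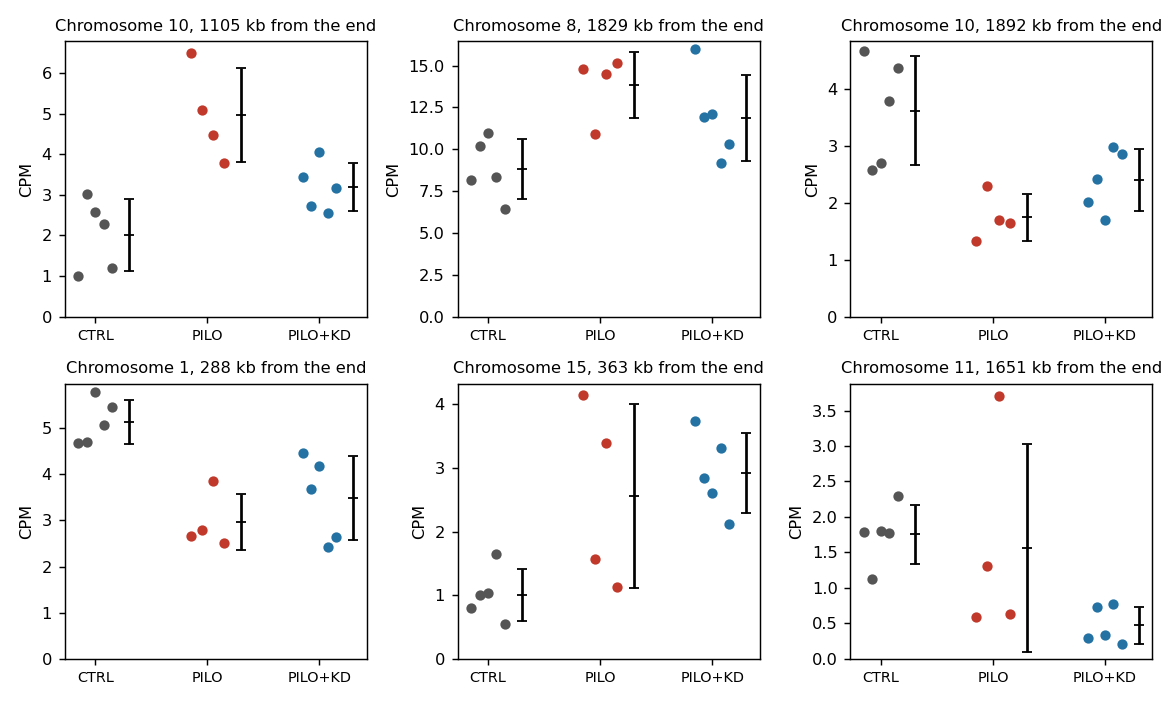
CPM after library scaling in each animal (points), with the group mean and SD beside it, for 6 members named by chromosome and distance from its distal end. PILO lies above CTRL for the chromosome 10 member at 1105 kb (3.78 to 6.51 against 0.993 to 3.02 CPM) and below it for the members on chromosome 10 at 1892 kb and chromosome 1, and PILO+KD lies above CTRL on chromosome 15 and below it on chromosome 11.

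In PILO+KD against CTRL the member with the smallest p was chr15:109393176-109393834 (658 bp, 362.9 kb from the end). It had 0.795, 1.01, 1.03, 1.64 and 0.545 CPM in CTRL and 3.74, 2.84, 2.60, 3.32 and 2.12 in PILO+KD, without overlap (log2 fold change 1.54, SE 0.35; edgeR adjusted p = 0.614). PILO had 4.14, 1.56, 3.39 and 1.13 CPM, of which 2 animals lay within the CTRL range (1.30, SE 0.37; edgeR adjusted p = 0.636). On chromosome 11, chr11:87372859-87373753 (385.4 kb from the end) had 2.66 to 5.34 CPM in CTRL and 5.42 to 13.7 in PILO+KD (0.90, SE 0.25; edgeR adjusted p = 0.872). On chromosome 13, chr13:109221235-109222537 had 1.96 to 3.61 CPM in CTRL and 3.48 to 10.5 in PILO+KD, which overlapped (1.12, SE 0.31; edgeR adjusted p = 0.872). In the largest flow cell its value was 0.41 and not called.

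Only 3 members were called lower in PILO+KD against CTRL, 1 of them the chromosome 1 region above. At chr11:86107028-86107791 (763 bp) CTRL had 1.79, 1.12, 1.80, 1.77 and 2.29 CPM and PILO+KD 0.288, 0.737, 0.339, 0.774 and 0.212, from 2 to 7 tags per animal (log2 fold change -1.85, SE 0.47; edgeR adjusted p = 0.776). PILO had 0.592, 1.32, 3.70 and 0.630 CPM, with animals on both sides of CTRL. The region was also called in PILO+KD against PILO (-1.64, SE 0.50), but without PILO replicate 4 that value was -0.86 and not called. At chr9:112359686-112360206 CTRL ranged from 0.448 to 5.41 CPM and PILO+KD from 0.288 to 2.03, and the call (-1.29, SE 0.45) was lost in 5 of 10 fits with 1 animal removed, the value being -0.99 without CTRL replicate 3.

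The remaining 5 members called in PILO+KD against PILO included a pair on chromosome 19 in which PILO did not overlap with either other group. This was noticed after the values were seen, and the share of all regions like this was not counted. At chr19:57564911-57565626 PILO had 3.26, 2.71, 1.85 and 2.02 CPM, CTRL 0.773 to 1.79 and PILO+KD 0.885 to 1.58. The log2 fold change was -1.02 (SE 0.33; edgeR adjusted p = 1.00) in PILO+KD against PILO and 0.98 (SE 0.33; edgeR adjusted p = 0.795) in PILO against CTRL, and the comparisons share the PILO animals. At chr19:58492124-58492918 PILO had 3.85, 5.26, 4.62 and 4.66 CPM, CTRL 2.69 to 3.48 and PILO+KD 2.42 to 3.39 (-0.66, SE 0.21, against PILO). That region was not called in PILO against CTRL. The 3 higher members were chr8:127339914-127340627 (1.04, SE 0.33), chr14:111005051-111005609 (1.08, SE 0.39) and chr19:57330536-57331563 (0.50, SE 0.17), of which the last had no overlap, with 7.74 to 10.4 CPM in PILO+KD and 5.04 to 7.64 in PILO. Each of these 5 calls was lost in 3 to 5 of 9 fits with 1 animal removed.

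Within the 2 Mb, the calls in PILO against CTRL were spread over the distance from the end. From the end inward in steps of 0.5 Mb, 6 of 429, 2 of 347, 9 of 460 and 7 of 520 tested members were called, and the third step held the chromosome 10 stretches. In the largest flow cell alone, with 2 or 3 animals a group, 4 of the 8 regions named by rule in PILO against CTRL were called, namely chr10:109604512-109605572 (1.02), chr10:109424150-109425041 (1.18), chr12:46463846-46464630 (1.24) and chr1:267621663-267622321 (-0.75). In PILO+KD against CTRL 1 of 7 was, chr10:109424150-109425041 (1.08), and in PILO+KD against PILO 0 of 6, and 0 of these values changed direction. These libraries were among those on which the regions were chosen, so that a kept direction is no independent check. At the inner limit, the members just inside were chr17:95256196-95256491 with 5.33 tags per kb and chr11:85759058-85759694 with 44.6, and the regions just outside were chr11:85757893-85758317 with 16.2 and chr19:57219946-57220590 with 47.5.

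Tags were also summed over the outermost 2 Mb window of each autosome, and edgeR's quasi-likelihood test was run on these sums among all 1288 such windows. None of the 20 outermost windows had an adjusted p below 0.05 in any comparison, nor did any other window (0.0% of 1288). At an unadjusted p below 0.05 there was 1 outermost window in PILO against CTRL and 0 in the other comparisons, where 1.01%, 0.543% and 0.311% of all windows passed. This was the window of chromosome 19, with 521 to 571 CPM in CTRL, 575 to 614 in PILO and 540 to 600 in PILO+KD. PILO did not overlap with CTRL there (log2 fold change 0.10, SE 0.04; edgeR adjusted p = 0.999), and the value was 0.08 without CTRL replicate 2, 0.09 without CTRL replicate 3 and 0.08 without PILO replicate 4, each above the threshold of 0.05 (edgeR unadjusted p = 0.0674, 0.0596 and 0.0948). With windows of 1 Mb its value was 0.06, and 0 of the 20 outermost windows had an unadjusted p below 0.05 in any comparison.

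The fold changes of whole chromosome ends were small. In PILO against CTRL they ranged from -0.05 to 0.10 on the log2 scale (SE 0.03 to 0.09), with 11 of 20 above 0 and a median of 0.01. In PILO+KD against CTRL they ranged from -0.03 to 0.07, with 16 of 20 above 0 and a median of 0.02. For PILO+KD against PILO they ranged from -0.04 to 0.07, with 12 of 20 above 0. In the largest flow cell alone, 12, 8 and 7 of 20 were above 0 in the 3 comparisons.

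**Figure D5:**
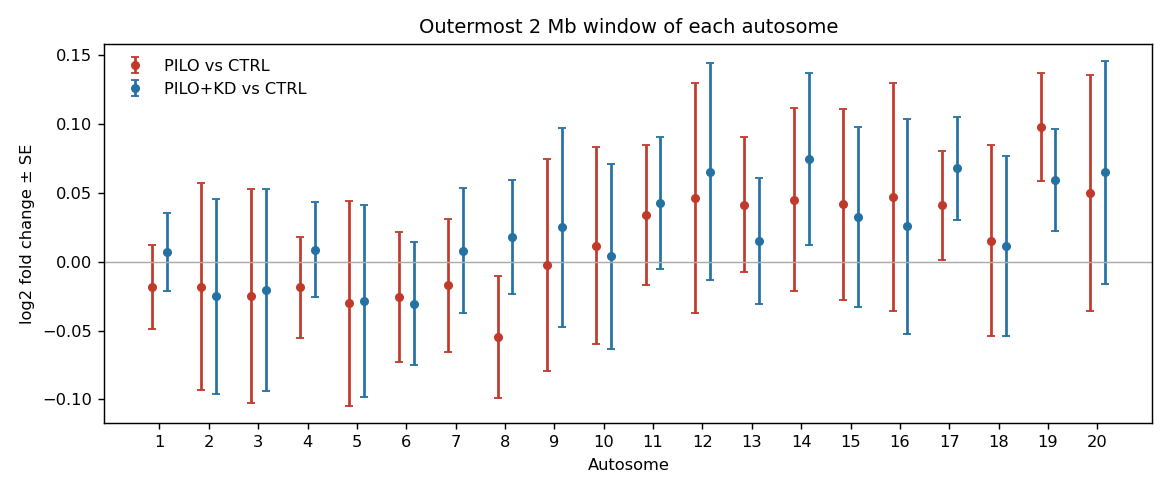
log2 fold change with its SE (error bars) of the tags in the outermost 2 Mb window of each autosome, for PILO against CTRL (red) and PILO+KD against CTRL (blue). The windows lie between -0.05 and 0.10, and chromosome 19 in PILO is the 1 window at an unadjusted p below 0.05.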

How the data were processed

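Methyl-Seq libraries of 14 rats were analysed. Per the labels and the study's methods, 500 ng of DNA per rat went through a capture of methylated fragments. The 36 bp single-end reads were mapped with BWA to RN4 and duplicates were dropped. The authors called regions that differed between sample pairs with MACS 1.4.0 (the submitters' processing notes) and merged them. They deposited the tag counts per region and animal, without normalization. The region list therefore depends on these animals, and a region is not a CpG island or a measured methylation level. Total tags were 6972700 to 12391666 per animal (median 9400500), and 1 tag was worth 0.0807 to 0.143 CPM.

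Members were found by position. Regions with summed tags below the 50th centile (129) were removed, leaving 155092. Counts were scaled with TMM (factors 0.895 to 1.07) and tested in edgeR 4.0.16 (R 4.3.3, common dispersion 0.0382) with all 14 animals and a mean per group. The call was an unadjusted p below 0.01, after the study's cut-off, with Benjamini-Hochberg values beside it. Windows of 2 Mb counted from the distal end needed at least 10 tags in every animal. Ratios per animal were compared with exact permutation tests. The fits were tested on simulated data.

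Regions were named by rule: the 4 higher and 4 lower called members with the smallest p in each comparison with CTRL (3 and 3 in PILO+KD against PILO), the 3 with the most tags per kb, the longest, and those beside the limit. The members, lists and tests were chosen with earlier results of these data known. Alternatives covered scaling, filter, test (DESeq2 1.42.0, edgeR's exact test), animals, flow cell and replicate blocks, and the window. Replicate numbers were not treated as pairs. Genes and sequences of RN4 were not used here.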

Additional observations from a re-analysis of the deposited data

Results flagged for a closer look

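Among the 75 groups of values examined for an animal set apart from the rest by Dixon's criterion, 4 held one, and chance gives about 1 in 20. At chr12:46463846-46464630 PILO replicate 2 had 5.77 CPM, where the next animal of its group had 3.03. At chr8:127172914-127174985 PILO replicate 3 had 10.9 CPM, below the next animal with 14.5. At chr12:45820368-45822376, the member with the most tags per kb, PILO+KD replicate 1 had 206 CPM and the next animal 114. In the outermost window of chromosome 19 PILO replicate 4 had 614 CPM and the next animal 580.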

How the results depend on the processing

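Whether replicate numbers pair the animals could not be settled from the values. The mean correlation of same-numbered animals was 0.01 (-0.23 to 0.14) for PILO and CTRL, -0.01 (-0.29 to 0.19) for PILO+KD and CTRL and 0.13 (-0.09 to 0.28) for PILO+KD and PILO, and 1 of 4, 2 of 4 and 2 of 3 pairs correlated best with their own number. With a replicate block 21, 9 and 1 members were called in PILO against CTRL, PILO+KD against CTRL and PILO+KD against PILO, the log2 ratio differences were 0.0071, 0.026 and 0.0045 (exact sign-flip p = 0.875, 0.5 and 1.00, where 4, 4 and 3 pairs allow 0.125, 0.125 and 0.25 at best), and no window was called. Without the filter the calls were 37, 31 and 11, and requiring 10 or more tags per animal 11 and 4 in the comparisons with CTRL. A window of 1 Mb gave 5 higher and 3 lower, 5 and 1, and 0 and 1 calls, and a window of 5 Mb 70 and 31, 36 and 29, and 11 and 19. Leaving out an animal gave 13 (without CTRL replicate 4) to 30, 6 (without CTRL replicate 5; 8 without CTRL replicate 4) to 22 (without CTRL replicate 3), and 4 to 8. The ratio differences changed sign with a window of 5 Mb (-0.0027, -0.0074 and -0.0047), in the largest flow cell (-0.0048 in PILO+KD against CTRL, -0.011 against PILO) and, for PILO+KD against PILO, without PILO replicate 3 (range -0.0074 to 0.018); leaving out an animal gave 0.0024 to 0.028 for PILO and 0.014 to 0.027 for PILO+KD against CTRL. The density ratio was 1.24 with 5 Mb. The tags per kb ratio was 1.28 with 1 Mb, 0.975 with 5 Mb and 1.04 without the 3 densest members, an alternative chosen after seeing the data. Scaling by total tags gave 1 higher and 3 lower members in PILO+KD against PILO, in place of 3 and 3. Of the values for named regions and windows under alternatives, 328 kept direction and threshold, 82 lost the threshold and 0 changed direction. They were chosen on the same animals, so that these counts are no independent check. The causes were not tested. Members called in PILO against CTRL held a median of 297 tags over all animals, which bounds the counting precision of a single value.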

Other observations

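In the outermost 2 Mb windows the sign of the fold change in PILO against CTRL followed the chromosome number: 9 of 9 windows of chromosomes 1 to 9 were below 0 (mean -0.02 on the log2 scale) and 11 of 11 windows of chromosomes 10 to 20 were above 0 (mean 0.04). This order was noticed after the values were seen, so no test was made of it. The windows of an animal share its library and are not independent. The changes were small, and 17 of 20 were within 1 SE of 0. The median log2 fold change of the tested members of each end broke the order on chromosomes 1 (0.0043), 2 (0.027), 4 (0.016) and 10 (-0.013). On the other autosomes it had the sign of the window. For each animal, the mean log2 level of chromosomes 10 to 20 minus that of chromosomes 1 to 9 (each window centred over the animals) was -0.09 to 0.01 in CTRL, -0.02 to 0.08 in PILO and -0.07 to 0.10 in PILO+KD, and the groups overlapped. In the largest flow cell 8 of 9 and 11 of 11 windows had these signs, and in fits that left out 1 animal each 6 to 9 and 9 to 11 did. In PILO+KD against CTRL, which shares the CTRL animals, 4 of 9 windows were below 0 and 11 of 11 above it, but in the largest flow cell alone 4 of 9 and 3 of 11.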
